A study of Danio rerio with 16 samples.

Results

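Messenger RNA of a pool of zebrafish embryos labelled 16-36 hpf (hours post fertilization) was compared with that of embryos at 24 hpf. The pool is 1 library, and the 24 hpf group is 3 biological samples, so that 4 of the 7 libraries with files were compared, out of 16 sample records. All were whole wild-type embryos of the AB strain with no treatment, from which total RNA was extracted with TRIzol and made into mRNA libraries with an Illumina TruSeq kit. The other 3 libraries (5-day larvae, adult head and adult tail) also entered the normalisation, the filter on low counts and the fit, and are quoted where they share the gene annotation of the pool. The 2 labels of the pool disagree on its age: the title gives 16 to 36 hpf and the stage label gives 16 somites to 24 hpf. The labels do not give the number of embryos pooled, the ages that went into the pool or their shares. The pool had 11045403 reads counted on genes, and the 24 hpf samples had 41607139, 40899061 and 44962951.

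The 2 groups were counted on different gene annotations of the Zv9 genome. Of the gene identifiers, 28364 occur in both, and 16558 of these have 1 genomic interval that is identical in both annotations, 11751 have a changed interval and 55 lie at several loci. Totals are therefore given for all shared genes and, kept apart, for those with an identical interval. For lists with many calls, the calls are split likewise. For genes named from lists, the class of interval is given only in part. Only the intervals were compared, so the annotations may still differ inside an identical one. Levels are given as CPM, read counts divided by library depth after scaling by the trimmed mean of M values (TMM), and were checked in FPKM, fragments divided by transcript length and depth, which the authors made from the same reads. Stage, annotation, sequencing depth and any batch differ together between the groups and cannot be told apart.

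Zebrafish embryos pass in this window from segmentation to the pharyngula period. Somites form one after another from the tailbud, their cells fuse into muscle fibres and assemble sarcomeres, neurons extend axons and build synapses, and lens cells elongate and fill with crystallins. The fin fold at the edge of the tail is stiffened by actinotrichia, fibres of collagen and actinodin. The hatching gland stores proteases on the front of the yolk, to be released at hatching, and the heart begins to beat while primitive red blood cells mature in the circulation.

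In the pool, 1386 of 21128 genes tested were higher (6.56%) and 1279 were lower (6.05%) at a Benjamini-Hochberg adjusted p under 0.05 in edgeR's quasi-likelihood test, together 12.6%. Among the 9957 tested genes with an identical interval, 643 were higher (6.46%) and 554 were lower (5.56%). The genes with a changed interval split into 721 higher (6.48%) and 725 lower (6.52%), so the share of calls was close in both classes. Without any test, the pool stood at least 2-fold above all 3 samples of 24 hpf for 2150 genes (10.2%) and at least 2-fold below all of them for 1962 (9.29%), where a floor of 0.273 CPM, worth 3 counts in the pool, replaced lower values in all 4 libraries. For genes with an identical interval these shares were 11.5% and 9.85%, and for those with a changed interval 8.81% and 8.82%. With 3 counts of each library as its own floor, 3137 genes stood above, but this floor lies more than 3-fold higher in the pool than at 24 hpf, so that genes at or under it in every library count as above. The median log2 change over all genes tested was -0.08, and 0.06 over those with an identical interval.

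Only the 24 hpf group is replicated, so the p-values measure the spread between its 3 samples, and the pool is assumed to vary like them. The number of calls hung on single samples. Without 24 hpf sample 2 the test called 71 genes higher and 73 lower, without sample 1 it called 265 and 192, and without sample 3 it called 2205 and 2620. Of the 2665 calls, 125 remained without any one of the 3 samples, 57 of them higher and 68 lower. With limma-voom the same comparison gave 0 higher and 3 lower calls, although 5918 genes had an unadjusted p under 0.05. Log2 changes of the genes named here kept their sign without each sample, except that of hbbe3, a globin gene that was not called. The split of the calls hung on the scaling: 52.01% were higher with TMM and 72.6% when counts were scaled by library totals alone. It also hung on the genes fitted. With only genes of an identical interval in the fit, 438 of 9930 were called higher and 609 lower. The main fit called 643 and 554 of these genes, so the direction of the balance changed.

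Short transcripts were lower and long ones higher in the pool. When genes of at least 5 CPM in the higher group were sorted into sixths by the transcript length that reads per FPKM imply, the median log2 change went up step by step: -0.84, -0.55, -0.28, -0.07, 0.15 and 0.52. Genes with an identical interval ran between -0.65 and 0.57. The implied length averages the pool and the 3 samples of 24 hpf. A gene whose pool counts fell more than its pool FPKM is thus placed as shorter. Implied length is therefore not independent of the change, and the percentiles, centred medians and length-offset calls below share this limit. Sorting by the length of the genomic interval, which uses neither counts nor FPKM, gave -0.51 in the shortest sixth and 0.34 in the longest. Each 24 hpf sample set against the other 2 stayed between -0.19 and 0.14 in every sixth of implied length. Within that range sample 2 also went up step by step, from -0.19 to 0.06. From the shortest to the longest sixth, sample 1 went from 0.05 to -0.05 and sample 3 from 0.14 to -0.02. The length of a list's transcripts is therefore given beside the lists with many calls as a percentile of all genes tested, together with the change after centring on genes of like length and the calls of a fit with length offsets. That fit was added after the trend was seen and called 1217 of 19111 genes higher (6.37%) and 448 lower (2.34%). The cause of the trend was not tested.

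**Figure D1:**
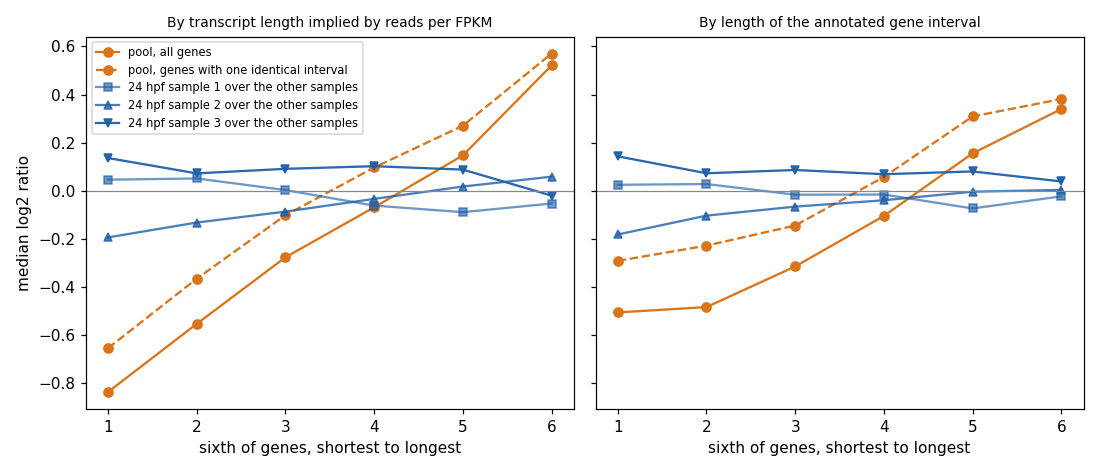
Median log2 ratio by sixth of genes sorted by implied transcript length (left) or genomic interval length (right), for the pool over 24 hpf (orange) and for each 24 hpf sample over the other samples (blue). The pool climbs with implied length from -0.84 to 0.52, while the 24 hpf samples keep within -0.19 and 0.14. Within that range sample 2 also climbs, from -0.19 to 0.06.

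Calls were set against FPKM, in which the median log2 ratio of all genes tested was 0.31, against a median log2 change of -0.08 in counts. Of the 1346 higher genes with usable FPKM, 1278 were at least 2-fold higher in FPKM too (94.9%), and 4 went the other way. Of the 1242 lower genes, 715 were at least 2-fold lower in FPKM (57.6%) and 91 went the other way, 60 of these with an identical interval. Requiring an identical interval, a distance of 2-fold from every 24 hpf sample and 2-fold in FPKM left 589 higher and 331 lower genes. The 10 largest changes in each direction among these, at 20 CPM or more, are described next. Clone names and symbols with an (n of m) suffix were left out. This dropped NEFM (1 of 2), with a log2 change of 3.52, which is described with the neurons.

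**Figure D2:**
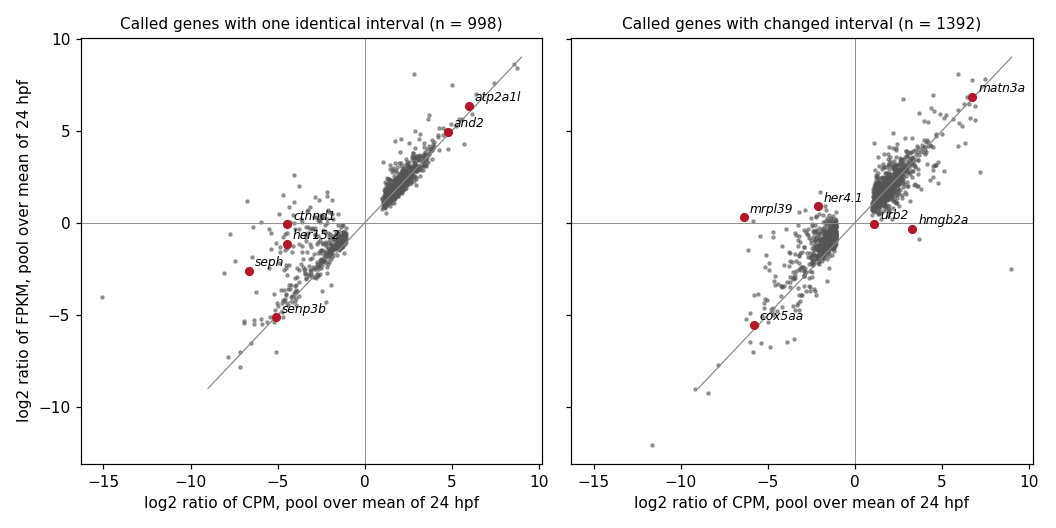
Log2 ratio of the pool to the mean of 24 hpf in CPM (x) and in FPKM (y) for called genes with an identical interval (left) or a changed interval (right), with some named genes marked in red and the line of equality in grey. Most higher calls lie along the line, but the higher calls urb2 and hmgb2a lie below 0 in FPKM. Part of the lower calls, such as ctnnd1 and mrpl39, lie near 0 in FPKM.

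Of the 10 most increased genes chosen in this way, 4 belong to muscle or to the fin fold and connective tissue. The gene atp2a1l (ENSDARG00000035458, chromosome 12, 14350469 to 14367789), which codes for a calcium pump of the muscle sarcoplasmic reticulum, had 122 CPM in the pool, against 2.80, 0.359 and 2.68 CPM in the 3 samples of 24 hpf. Its log2 change was 5.97 (SE 0.77, adjusted p = 0.00837). The actinodin gene and2 (ENSDARG00000079302, chromosome 2, 31480048 to 31484497) had 115 CPM in the pool, against 7.08, 2.32 and 3.33 CPM at 24 hpf, a log2 change of 4.76 (SE 0.51, adjusted p = 0.00537). Its paralogue and1 had 177 CPM in the pool, against 23.5, 6.46 and 20.8 CPM at 24 hpf. The gene COL19A1 (ENSDARG00000039462, chromosome 19, 4505332 to 4541542) codes for a collagen chain and had 67.0 CPM in the pool, against 3.78, 1.16 and 2.99 CPM at 24 hpf, a log2 change of 4.66 (SE 0.50, adjusted p = 0.00558). The 24 hpf samples of these 4 genes varied by more than 3-fold among themselves, with sample 2 lowest each time. The rule of choice required each of them to lie at least 2-fold below the pool.

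A pair of lens genes and a synaptic gene were also among the 10. The beta crystallin gene crybb1l1 had 177 CPM in the pool, against 34.3, 8.51 and 42.8 CPM at 24 hpf. The gene BFSP1, for the lens intermediate filament protein filensin, had 34.8 CPM in the pool, against 6.91, 4.67 and 6.64 CPM at 24 hpf. The gene SV2A, for a synaptic vesicle glycoprotein, had 21.8 CPM in the pool, against 2.099, 1.35 and 5.90 CPM at 24 hpf. Also among them was APC2, a relative of the Wnt regulator APC, with 31.9 CPM in the pool against 2.04, 3.15 and 5.82 CPM at 24 hpf. The log2 changes of these genes were 2.63, 2.52, 2.80 and 3.12, with adjusted p between 0.00644 and 0.0477. TKT (transketolase) rose by a log2 change of 2.91 and MDC1 (a DNA damage checkpoint mediator) by 2.56. Calls of atp2a1l, and2 and COL19A1 held without any one of the 3 samples of 24 hpf, with adjusted p of 0.0346, 0.0478 and 0.0346 without sample 2. Of the other 7, and1 was no longer called without sample 1 (adjusted p = 0.0509), and the other 6 were no longer called without sample 2 (adjusted p between 0.0504 and 0.108).

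The 10 most decreased genes were of mixed function, and in CPM all 10 were more than 10-fold lower in the pool than in the lowest 24 hpf sample. The selenoprotein gene seph (ENSDARG00000059124, chromosome 8, 7852356 to 7854060) had 2.00 CPM in the pool, against 181, 175 and 243 CPM at 24 hpf, a log2 change of -6.64 (SE 0.47, adjusted p = 0.00178). In FPKM the difference was smaller, with 12.02 in the pool against 68.1, 69.5 and 83.6 at 24 hpf. The SUMO protease gene senp3b (ENSDARG00000056741, chromosome 7, 27636640 to 27657933) had 41.4 CPM in the pool, against 1523, 1354 and 1426 CPM at 24 hpf, a log2 change of -5.11 (SE 0.37, adjusted p = 0.00189). The gene qk (ENSDARG00000044462, chromosome 17, 27579662 to 27872614), for the RNA-binding protein quaking, had 22.1 CPM in the pool, against 403, 505 and 326 CPM at 24 hpf. Its log2 change was -4.22 (SE 0.42, adjusted p = 0.00441). The 3 samples of 24 hpf lay close together for seph, senp3b and qk.

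Others in this set act on chromatin and transcription. The histone chaperone gene asf1ba had 0.910 CPM in the pool, against 26.6, 14.1 and 24.7 CPM at 24 hpf. The gene dr1, for a repressor that binds the TATA-binding protein, had 4.73 CPM in the pool, against 80.5, 70.1 and 102 CPM at 24 hpf. The Notch-responsive repressor gene her15.2 had 2.64 CPM in the pool, against 63.0, 45.9 and 68.1 CPM at 24 hpf. Its FPKM differed less, at 17.6 in the pool against 42.2, 33.4 and 41.7 at 24 hpf. For all 3 genes the rule of choice required the pool to lie below every 24 hpf sample. The gene bhik had 0 counts in the pool and 18.7, 32.6 and 19.0 CPM at 24 hpf, and with a floor of 3 counts in the pool it was at least 85.9-fold lower. The sulfotransferase gene sult2st1 fell by 5.05 on the log2 scale and RLTPR, an actin regulator, fell by 3.92. SRP_euk_arch, the name of a signal recognition particle RNA family, had 1.00 CPM in the pool against 68.4, 18.1 and 193 CPM at 24 hpf, a wide spread within 24 hpf. Calls of bhik, seph, senp3b, asf1ba, her15.2, qk and dr1 held without any one of the 3 samples.

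Most of these decreased genes were also low in the libraries that share the annotation of the pool. In the larva, head and tail, seph had 0.405, 0.105 and 2.81 CPM, senp3b had 20.4, 16.0 and 89.7 CPM, and dr1 had 1.82, 1.26 and 3.60 CPM. Stage and annotation cannot be told apart for them. Of the higher genes, atp2a1l was also high in these libraries, with 1053, 2687 and 2392 CPM in the larva, head and tail. The same limit holds for it. The level of and2 varied among them, with 449 CPM in the larva, 0 counts in the head and 0.112 CPM in the tail.

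**Figure D3:**
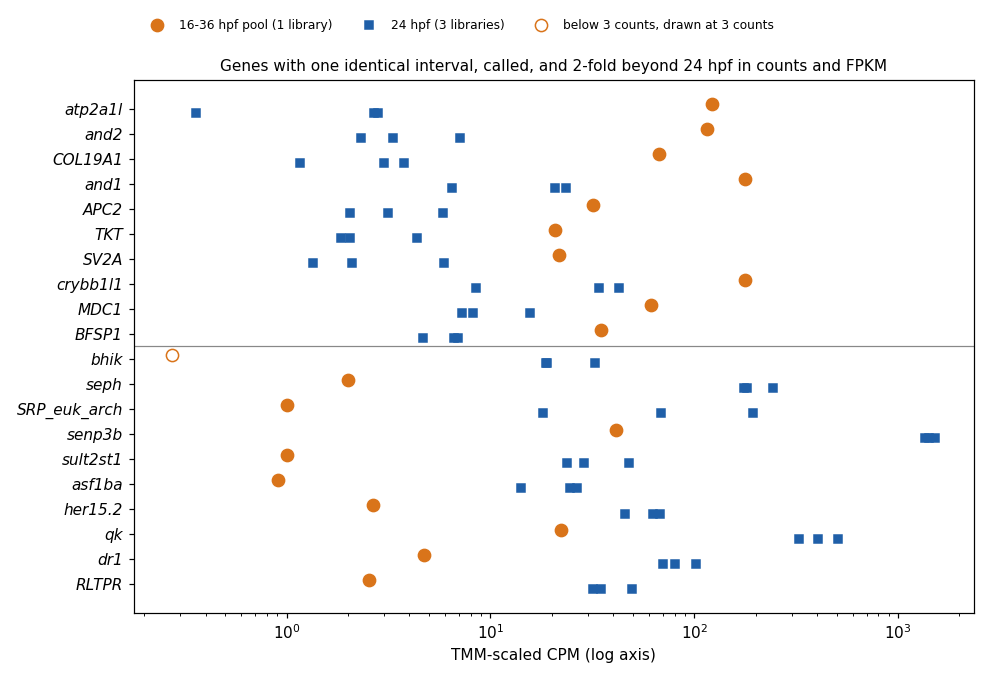
TMM-scaled CPM (log axis) of the 10 most increased genes (upper block) and the 10 most decreased genes (lower block) in the pool (orange circle) and in the 3 samples of 24 hpf (blue squares); the open circle stands for 0 counts, drawn at 3 counts. The pool lies outside the range of 24 hpf for all 20 genes because the rule of choice required it. The 24 hpf samples are more scattered for the increased genes.

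Gene lists for tissues and cell functions were then read against the background of all genes. For every list, that background is 6.56% higher and 6.05% lower calls. It is 10.2% for genes 2-fold above every 24 hpf sample. For the length-offset fit it is 6.37% higher and 2.34% lower calls. For fast skeletal muscle, 20 of 57 members tested were higher and 1 lower, against 6.56% and 6.05% of all genes. Higher calls were 5 of 7 members with an identical interval and 15 of 50 with a changed interval. The median log2 change was 0.99, and 52 of the 57 were above 0. NRAP, for a nebulin-related protein of myofibril assembly, had 76.2 CPM in the pool, against 11.6, 18.1 and 24.3 CPM at 24 hpf. The fast myosin heavy chain gene myhb had 2.28 CPM in the pool, against 0.336, 0.387 and 0.226 CPM at 24 hpf. In FPKM it had 5.91 in the pool, against 0.0183, 0.0290 and 0.0179 at 24 hpf. These genes rose by 2.08 (NRAP) and 2.82 (myhb) on the log2 scale (adjusted p = 0.0206 and 0.0111). Besides atp2a1l, the calls of ampd1, ryr3, ttna and xirp2a held without any one of the 3 samples, all on changed intervals. These 4 were chosen after their values were seen. The titin gene ttna, for the spring of the sarcomere, had 1098 CPM in the pool, against 54.4, 36.5 and 58.6 CPM at 24 hpf. The calcium release channel gene ryr3 had 204 CPM in the pool, against 11.03, 4.42 and 6.89 CPM at 24 hpf. Summed over the list, the level was 58717 CPM in the pool, against 37248, 21185 and 36124 CPM at 24 hpf. The members had a median length percentile of 48.0, the median after centring on length was 1.26, and the length-offset fit called 23 higher and 1 lower. Calls were fewer without sample 1 (9 higher) or sample 2 (5 higher) and more without sample 3 (26 higher).

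Of 17 slow muscle genes, 1 was higher and 4 lower, with a median log2 change of -0.43, and the length-offset fit called 1 higher and 1 lower. Changed intervals held 3 of the lower calls, among them smyhc3 and myh7bb, and identical intervals held 1 lower and 1 higher call. The slow myosin heavy chain gene smyhc3 had 2.91 CPM in the pool, against 23.7, 64.8 and 41.8 CPM at 24 hpf, and the light chain gene myl10 had 228 CPM in the pool, against 629, 565 and 794 CPM at 24 hpf. The myosin gene myh7bb had 0 counts in the pool, larva, head and tail and 9.88, 16.5 and 6.64 CPM at 24 hpf. The myosin-binding protein gene mybpc1 was higher, at 1.27 CPM in the pool against 0.364, 0.469 and 0.311 CPM at 24 hpf. None of the 5 calls was left without sample 2, and 2 were left without sample 1. A test of the difference between the fast and slow lists was not made.

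Among 20 genes of muscle specification, 1 was higher and 3 were lower, with a median log2 change of 0.23. The transcription factor gene myog, which drives myoblasts to differentiate, had 14.7 CPM in the pool, against 77.0, 100 and 109 CPM at 24 hpf, a log2 change of -2.70 (SE 0.36, adjusted p = 0.00896). The genes jam2a and tmem8c code for an adhesion protein and a membrane protein of myoblast fusion. They had 11.7 and 7.19 CPM in the pool, while their 24 hpf values ran between 53.1 and 69.2 CPM and between 27.7 and 42.5 CPM. The gene mef2ca, for a transcription factor of muscle, heart and cartilage, rose to 216 CPM in the pool against 92.5, 91.3 and 86.0 CPM at 24 hpf. All of these calls, 1 higher and 3 lower, were on changed intervals. The log2 FPKM ratios were -1.87 for myog, -1.27 for jam2a, -0.82 for tmem8c and 2.17 for mef2ca. Without sample 2 none of these calls was left.

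Neurons gave the largest count of higher genes of any list. Of 76 genes of neurons and synapses, 28 were higher and 0 lower, against 6.56% and 6.05% of all genes, and the median log2 change was 1.05. Members 2-fold above every 24 hpf sample numbered 28, against 10.2% of all genes. Higher calls were 11 of 24 members with an identical interval and 17 of 52 with a changed interval. A neurofilament gene, nefm, had 61.9 CPM in the pool, against 8.45, 10.9 and 16.5 CPM at 24 hpf, and NEFM (1 of 2) had 33.2 CPM, against 1.12, 2.51 and 5.03 CPM. The log2 change was 2.37 for nefm (SE 0.36, adjusted p = 0.0129) and 3.52 for its relative (SE 0.61, adjusted p = 0.018). The synaptic adhesion gene nlgn1 (neuroligin) rose at low level, to 1.09 CPM in the pool against 0.196, 0.138 and 0.141 CPM at 24 hpf. Chosen after its values were seen, the ankyrin gene ank2, for an adaptor of the axonal membrane skeleton, was the one member still called without sample 2. It had 119 CPM in the pool, against 0.980, 1.44 and 2.06 CPM at 24 hpf, on a changed interval. Members with an identical interval had a median of 1.19. The median length percentile was 62.5, the length-centred median 0.89, and the length-offset fit called 23 higher and 0 lower. Higher calls numbered 3 without sample 1, 1 without sample 2 and 42 without sample 3.

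Of 49 genes of neural progenitors, 3 were higher, near the 6.56% of all genes, and 5 were lower, against 6.05%. The median was -0.14 beside -0.08 for all genes, and 0.13 when scaled by library totals. NOTCH1 (3 of 4), a receptor that keeps progenitors dividing, had 89.0 CPM in the pool, against 17.4, 11.2 and 24.1 CPM at 24 hpf. The gene atoh1a, for a transcription factor of hindbrain and hair cell precursors, had 3.46 CPM in the pool, against 15.3, 13.6 and 21.7 CPM at 24 hpf. The Hairy-related repressor gene her2 had 21.9 CPM in the pool, against 50.5, 50.1 and 43.9 CPM at 24 hpf. BX088691.1 is named ascl1b, a proneural transcription factor, in the 24 hpf files only, and si:ch211-210p4.6 in a table of gene names. Its identity is therefore not settled. It had 0.637 CPM in the pool, against 34.8, 23.4 and 52.2 CPM at 24 hpf on a changed interval. Its call was the only one of the 8 that remained without sample 2.

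Of 15 glial genes, 2 were higher and 1 lower, against 6.56% and 6.05% of all genes. The glutamate transporter gene slc1a3a had 91.9 CPM in the pool, against 390, 273 and 480 CPM at 24 hpf. Its relative slc1a2b had 129 CPM in the pool, against 56.4, 41.3 and 59.8 CPM at 24 hpf. The neuregulin receptor gene erbb3a, used by Schwann cells, had 53.6 CPM in the pool, against 11.8, 14.4 and 6.30 CPM at 24 hpf. Among 25 genes of neural crest and pigment cells, 2 were higher (csf1ra and ltk, receptor kinases of pigment cell lineages) and 1 was lower (foxd3). The crest transcription factor gene foxd3 had no count in the pool or in the 3 other libraries of its annotation, against 46.5, 57.7 and 51.95 CPM at 24 hpf, on a changed interval. In FPKM it had 0.000145 in the pool, against 16.6, 22.6 and 16.6 at 24 hpf. Its FPKM were 5.56, 0.000124 and 0.635 in the larva, head and tail, although its counts there were 0. A count of 0 in this annotation therefore does not show that foxd3 had no reads.

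**Figure D4:**
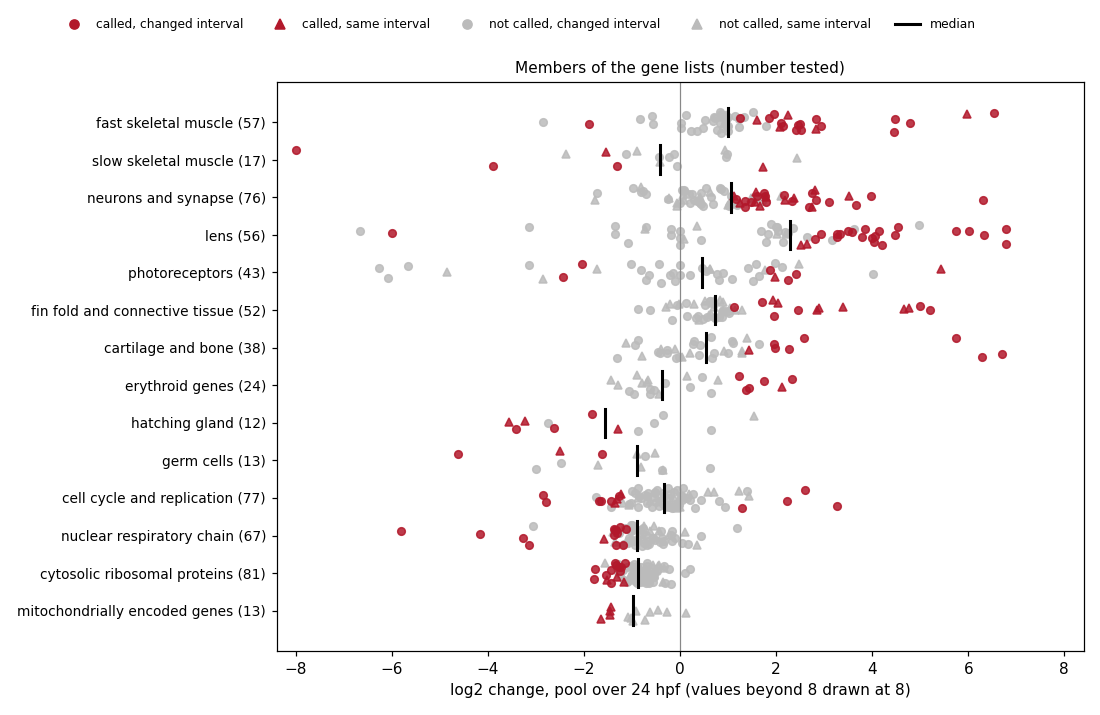
Log2 change of the pool over 24 hpf for each tested member of 14 gene lists, red where called and grey where not, as triangles for genes with an identical interval and circles for others, with the median as a black bar. Values beyond 8 are drawn at 8, and nearly all red points of neurons, fast muscle, lens and fin fold lie to the right, with medians of 1.05, 0.99, 2.29 and 0.73, and those of the hatching gland to the left, with a median of -1.57.

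The lens list had the largest median of the 36. Of 56 members, 23 were higher and 1 lower, against 6.56% and 6.05% of all genes, and the median log2 change was 2.29. Members 2-fold above every 24 hpf sample numbered 38, against 10.2% of all genes. Higher calls were 2 of 7 members with an identical interval and 21 of 49 with a changed interval. Most members are crystallins, the transparent bulk proteins of lens fibres, from paralogue families. Reads that aligned to several places were kept apart from the gene counts, so reads shared by paralogues may be missing from them. The gamma crystallin gene crygm2d15 had 7.83 CPM in the pool, against 0.0560 CPM, 0 counts and 0.141 CPM at 24 hpf, and si:ch211-212n6.18 had 8.83 CPM, against 0.0560, 0.0276 and 0.141 CPM. The sum over the list was 1671 CPM in the pool, against 439, 181 and 585 CPM at 24 hpf, so that the 24 hpf samples differed by more than 3-fold among themselves. Implied lengths were available for only 41 of the 56 members, so the length check is void for this list. Without sample 1 or sample 2, 8 members were called higher each time, and without sample 3, 37 were.

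Photoreceptor genes had low counts in both groups. Of 43 members, 5 were higher and 2 lower, and their summed level was 67.0 CPM in the pool against 103, 106 and 121 CPM at 24 hpf. The rod opsin gene rho had 1.46 CPM in the pool, against 0.0840 CPM in sample 1 and 0 counts in samples 2 and 3 of 24 hpf. The arrestin genes sagb and arr3a had 1.73 and 0.819 CPM in the pool, with 24 hpf values up to 0.469 and 0.196 CPM. The rod phosphodiesterase gene pde6b went down, with 0.637 CPM in the pool against 2.97, 3.07 and 4.41 CPM at 24 hpf. With 29 of 43 implied lengths, the length check is void here too. Of 22 genes of the inner ear and lateral line, 1 was higher (myo6b, a motor of hair cells) and 1 lower (atoh1a).

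Of 52 genes of the fin fold and connective tissue, 13 were higher and 0 lower, against 6.56% and 6.05% of all genes, with a median of 0.73. Higher calls were 7 of 25 members with an identical interval and 6 of 27 with a changed interval. Beside and1, and2 and COL19A1, they included col17a1b, for a collagen of the epidermal basement membrane anchor. It had 5.46 CPM in the pool, against 0.672, 0.746 and 0.763 CPM at 24 hpf, a log2 change of 2.90 (SE 0.28, adjusted p = 0.00441). These transcripts are long, with a median length percentile of 97.3, and the median was 0.12 after centring on length, while 11 members were still called higher by the length-offset fit. Higher calls numbered 8 without sample 1, 6 without sample 2 and 13 without sample 3. The list summed to 16542 CPM in the pool, against 12646, 9745 and 8770 CPM at 24 hpf.

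Cartilage and bone genes gave 8 higher and 0 lower of 38, with a median of 0.53. Higher calls were 1 of 11 members with an identical interval and 7 of 27 with a changed interval. The cartilage matrix gene matn3a (matrilin) had 22.03 CPM in the pool, against 0.420, 0.138 and 0.0565 CPM at 24 hpf. The collagen gene col10a1, a marker of skeletal cells, had 2.82 CPM in the pool, against 0.0840 CPM, 0 counts and 0.0565 CPM at 24 hpf. The aggrecan gene acanb had 1.91 CPM in the pool, against 0 counts in samples 1 and 3 and 0.0552 CPM in sample 2 of 24 hpf. The chondrogenic transcription factor gene sox9a, already abundant at 24 hpf, had 95.03 CPM in the pool, against 29.9, 32.6 and 43.1 CPM at 24 hpf. The length-centred median was 0.57 with 7 higher calls. Without sample 2 the higher calls were matn3a and col10a1. Of 17 notochord genes, 1 was higher: col27a1a, a fibrillar collagen, with 43.6 CPM in the pool against 12.4, 11.1 and 13.5 CPM at 24 hpf.

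The hatching gland was the list with the lowest median, -1.57. Of 12 members, 6 were lower and 0 higher, against 6.05% and 6.56% of all genes. Lower calls were 3 of 4 members with an identical interval and 3 of 8 with a changed interval. The hatching enzyme gene he2 (ENSDARG00000022670, chromosome 22, 14246500 to 14248780) had 15.11 CPM in the pool, against 146, 167 and 110 CPM at 24 hpf, a log2 change of -3.22 (SE 0.39, adjusted p = 0.00775). The cathepsin L genes ctsl1b and wu:fa26c03, which stand in the list of the gland, had 98.4 and 62.5 CPM in the pool. At 24 hpf they had 1364, 1192 and 608 CPM for ctsl1b and 953, 767 and 501 CPM for wu:fa26c03, whose FPKM were 0 in samples 1 and 2. The translocon gene sec61al1, used for secretion in all cells, had 391 CPM in the pool, against 877, 991 and 1026 CPM at 24 hpf. The sum over the list was 1244 CPM in the pool, against 5979, 5715 and 3643 CPM at 24 hpf. The length-centred median was -1.28 with 3 lower calls. Lower calls numbered 2 without sample 1, 0 without sample 2 and 7 without sample 3.

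Of 38 genes of the epidermis, 2 were higher, near the 6.56% of all genes, and 4 were lower, against 6.05%. The sum was 34098 CPM in the pool against 33838, 42390 and 37380 CPM at 24 hpf. The keratin gene zgc:92533 (krt91 in a table of gene names) had 317 CPM in the pool, against 4942, 6113 and 3368 CPM at 24 hpf. Another keratin gene, krt15, had 25.9 CPM in the pool, against 6.61, 4.92 and 10.03 CPM at 24 hpf. The annexin gene anxa1b had 64.9 CPM in the pool, against 200, 186 and 207 CPM at 24 hpf, and EVPL (1 of 2), for envoplakin, had 142 CPM, against 59.8, 53.8 and 35.8 CPM. None of the 6 calls was left without sample 1 or without sample 2. Of 30 genes of ionocytes and kidney, 2 were higher, near the 6.56% of all genes: rhcga, for an ammonia channel, and atp1a1a.5, for a sodium pump subunit, with 1.91 and 4.37 CPM in the pool and at most 0.280 and 1.01 CPM at 24 hpf.

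Of 34 genes of the somites and tailbud, 0 were higher and 2 lower, with a median of -0.30 (0.02 on log2(FPKM + 0.1)), and both calls (her15.2 and her4.1) were Notch-responsive repressors. The count of her4.1 was 2.91 CPM in the pool against 14.4, 11.4 and 12.7 CPM at 24 hpf, whereas its FPKM was 44.2 in the pool against 27.9, 22.7 and 20.2 at 24 hpf. Hox genes of paralogue groups 1 to 4 gave no call among 14. Their most abundant members, hoxb3a and hoxc3a, had 107 and 40.0 CPM in the pool, against means of 57.4 and 72.5 CPM at 24 hpf (adjusted p = 0.0639 and 0.117). Groups 5 to 8 gave 1 lower call of 12, hoxb8b, and groups 9 to 13 gave 1 lower call of 22, hoxc10a. The last of these had 18.8 CPM in the pool, against 42.7, 46.4 and 47.4 CPM at 24 hpf.

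Among 68 genes of FGF, Wnt, BMP and Hedgehog signalling, 1 was higher and 1 lower, with a median of 0.01. The FGF receptor gene fgfr1a had 111 CPM in the pool, against 26.6, 31.1 and 46.8 CPM at 24 hpf. The BMP-responsive inhibitor gene id3 had 65.4 CPM in the pool, against 139, 140 and 140 CPM at 24 hpf. Of 38 circadian and immediate early genes, 3 were higher, near the 6.56% of all genes, and 0 were lower. The period gene per3 had 50.9 CPM in the pool, against 12.4, 14.8 and 14.0 CPM at 24 hpf. The gene nr1d2a, for a Rev-erb nuclear receptor, had 10.7 CPM in the pool, against 2.52, 1.88 and 1.27 CPM at 24 hpf, and clock3 rose by 1.31 on the log2 scale. The labels give no time of day for any sample. None of these 5 calls was left without sample 2.

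Of 24 erythroid genes, 6 were higher and 0 lower. The median log2 change was -0.38 in counts, beside -0.08 for all genes, and the median log2 ratio in FPKM was 0.37, beside 0.31 for all genes. Those named by rule code for the membrane skeleton of red cells (add2, epb41 and sptb) and for a Kruppel-like factor (klfd). The membrane skeleton gene epb41 had 44.7 CPM in the pool, against 8.14, 10.24 and 8.28 CPM at 24 hpf, and the adducin gene add2 had 21.2 CPM, against 4.76, 4.34 and 5.42 CPM. The spectrin gene sptb had 158 CPM in the pool, against 47.2, 68.7 and 61.1 CPM at 24 hpf. Of 12 globin genes, 0 were called in either direction. The most abundant, hbae3, had 1212 CPM in the pool, against 659, 417 and 598 CPM at 24 hpf (log2 change 1.12, SE 0.31, adjusted p = 0.0594), and hbbe3 had 575 CPM, against 579, 368 and 592 CPM. Globin transcripts are short, at a median length percentile of 2.32. Their median log2 change was -0.63 in counts and 1.21 in FPKM, and 0.64 after centring on length, where the length-offset fit called 5 higher. The sign of the globin result therefore depended on the scale. Without sample 2 no erythroid call was left, and without sample 1, 1 was.

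Of 31 vessel genes, 1 was higher: the arterial ephrin gene efnb2a, with 126 CPM in the pool against 21.9, 22.6 and 26.2 CPM at 24 hpf (log2 change 2.42, SE 0.24, adjusted p = 0.00441). The interval of efnb2a was changed. Of 26 genes of macrophages and neutrophils, 3 were higher and 2 lower, against 6.56% and 6.05% of all genes. Both lower calls were on changed intervals, as were 2 of the higher calls. The leukocyte plastin gene lcp1 had 0.819 CPM in the pool, against 18.7, 20.7 and 14.2 CPM at 24 hpf, and the cathepsin gene ctssb.1 had 97.7 CPM, against 388, 385 and 289 CPM. The receptor gene csf1ra had 10.01 CPM in the pool, against 4.06, 3.40 and 3.16 CPM at 24 hpf, and the mast cell protease gene cpa5 had 0.910 CPM, against at most 0.0560 CPM. Among 20 heart genes, 3 were higher and 1 lower. Changed intervals held 2 of the higher calls and the 1 lower call, and myh6 was on an identical one. The myosin heavy chain genes vmhcl and myh6 had 20.2 and 12.1 CPM in the pool, and at most 3.37 and 3.51 CPM at 24 hpf. The light chain gene myl7 had 15.7 CPM in the pool, against 58.9, 45.6 and 37.6 CPM at 24 hpf. In FPKM myl7 had 30.3 in the pool, within the range of 47.7, 41.2 and 30.0 at 24 hpf. Neither myh6 nor myl7 was called by the length-offset fit (adjusted p = 0.108 and 0.251).

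No member of the 41 genes of liver, yolk and plasma proteins was called. The apolipoprotein genes apobl and apoa1 were the most abundant, with 4071 and 3619 CPM in the pool. At 24 hpf apobl had 6091, 6555 and 2308 CPM and apoa1 had 3541, 2848 and 3118 CPM, so the pool lay within the range of apobl. Of 35 genes of pancreas and intestine, cpa5 was higher and fabp2, for an intestinal fatty acid binding protein, was lower, at 259 CPM in the pool against 778, 869 and 757 CPM at 24 hpf. Of 13 germ cell genes, 3 were lower and 0 higher, with a median of -0.90 that centring on length left at -0.99. The gene dnd, for a protector of germ cell RNAs, had 0.0910 CPM in the pool (1 count), against 2.74, 2.60 and 1.81 CPM at 24 hpf. The Tudor domain genes tdrd1 and tdrd7 had 0.273 and 1.27 CPM in the pool, and at least 1.19 and 3.58 CPM at 24 hpf. No germ cell call was left without sample 1 or without sample 2. In whole embryos, fewer cells of a type and less RNA per cell cannot be told apart.

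**Figure D5:**
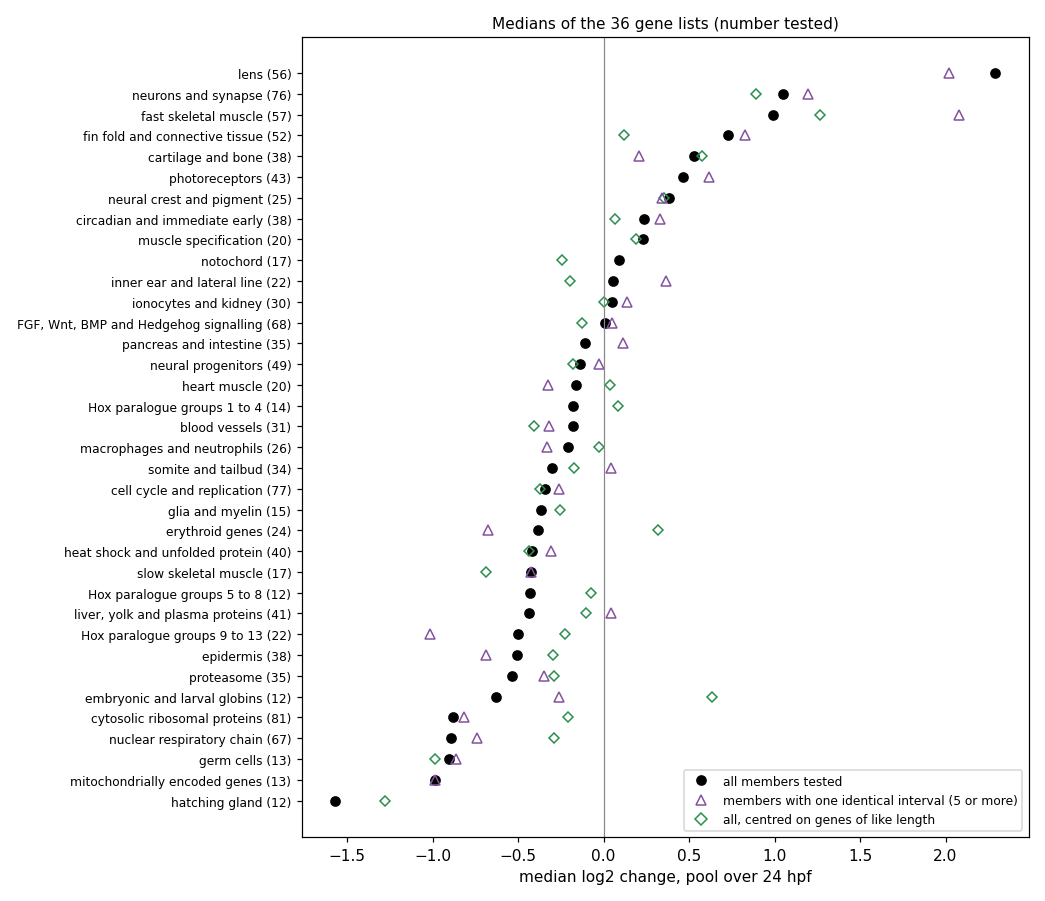
Median log2 change of the pool over 24 hpf for the 36 gene lists, over all members tested (black), over members with an identical interval where there are at least 5 (purple), and centred on genes of like length where at least 80% have an implied length (green). Lens, neurons and fast muscle stay above 0 on each scale drawn, while the fin fold comes down to 0.12 and the ribosomal proteins come up to -0.21 after centring.

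Of 77 genes of cell cycle and replication, 4 were higher and 9 lower, against 6.56% and 6.05% of all genes, with a median of -0.34. The 21 members with an identical interval gave 0 higher and 3 lower calls, and the 56 with a changed interval gave 4 and 6. The replication genes gins1, fen1 and cdk2 (a helicase subunit, a flap nuclease and a cyclin-dependent kinase) had 13.6, 70.4 and 34.5 CPM in the pool, against means of 35.0 ± 4.46, 165 ± 21.7 and 85.3 ± 7.24 CPM at 24 hpf (SD, n = 3). Their log2 changes were -1.37, -1.23 and -1.31, and none was called by the length-offset fit, in which 2 members were higher and 1 lower. The chromatin gene hmgb2a had 2.73 CPM in the pool against 0.448, 0.166 and 0.226 CPM at 24 hpf, but 916 FPKM in the pool against 1172, 1243 and 1037 FPKM at 24 hpf. The direction of hmgb2a therefore differed between the scales. Without sample 1 the list had 1 higher and 1 lower call, and without sample 2 it had none.

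Calls among ribosomal, respiratory and proteasome genes were nearly all lower, and their transcripts are short. Of 81 genes of cytosolic ribosomal proteins, 0 were higher and 14 lower, 79 had a log2 change below 0, and the median was -0.88. Lower calls were 3 of 16 members with an identical interval and 11 of 65 with a changed interval. The median length percentile was 4.15, and the length-offset fit called 0 in either direction, with a median of 0.0012 in that fit and of -0.21 after centring. In FPKM the median log2 ratio of the list stayed lower, at -0.82 beside 0.31 for all genes. The gene rplp2, for an acidic protein of the ribosomal stalk, had 158 CPM in the pool, against 413, 410 and 529 CPM at 24 hpf. Of 67 nuclear genes of the respiratory chain, 0 were higher and 14 lower. Lower calls were 1 of 13 members with an identical interval and 13 of 54 with a changed interval. The median of this list was -0.89 at a length percentile of 6.85, the centred median was -0.29, and the median log2 ratio in FPKM was -0.58. The cytochrome oxidase gene cox5aa had 1.09 CPM in the pool, against 56.8, 42.8 and 85.3 CPM at 24 hpf. It had 1.01, 0.629 and 0.225 CPM in the larva, head and tail, on a changed interval. The Rieske iron-sulphur protein gene uqcrfs1 had 11.01 CPM in the pool, against 93.5, 80.4 and 145 CPM at 24 hpf. The length-offset fit left 1 higher and 4 lower calls in this list.

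Of 35 proteasome genes, 4 were lower and 0 higher, against 6.05% and 6.56% of all genes. The subunit gene psma5 had 57.8 CPM in the pool, against 192, 167 and 215 CPM at 24 hpf, and the length-offset fit called no member. The median log2 ratio of the proteasome list in FPKM was -0.42, beside 0.31 for all genes. Lower calls of the ribosomal, respiratory and proteasome lists numbered 0, 2 and 0 without sample 1 and 0, 1 and 0 without sample 2. Among 40 heat shock genes, 1 was higher (hspb8, with 92.8 CPM in the pool against 31.2, 21.8 and 31.2 CPM at 24 hpf). Lower calls were hspb1, hspb7 and hspe1, near the 6.05% of all genes. The 13 mitochondrially encoded protein genes gave 4 lower calls, with a median of -0.99 in counts. Over the 3 members with usable FPKM the median log2 ratio was 3.50, in the other direction. The cytochrome oxidase gene mt-co1 had 3848 CPM in the pool, against 12511, 10843 and 13063 CPM at 24 hpf, a log2 change of -1.66 (SE 0.35, adjusted p = 0.0303). The FPKM of the 4 called genes are listed at 0 in the pool, so that they have no check in FPKM, and with 3 of 13 implied lengths the length check is void. Summed, they held 14321 CPM in the pool, against 35298, 31286 and 37534 CPM at 24 hpf.

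Some calls in counts were absent in FPKM. By the same symbol filter and at 20 CPM or more, urb2 was the only higher call whose FPKM did not lie above the 24 hpf range. This gene, for a ribosome biogenesis protein, had 33.6 CPM in the pool, against 14.5, 16.96 and 15.3 CPM at 24 hpf. Its FPKM of 7.13 in the pool lay within the 24 hpf values of 6.399, 8.998 and 6.73. Among lower calls, mrpl39, for a mitochondrial ribosomal protein, had 0.728 CPM in the pool, against 56.6, 48.7 and 76.2 CPM at 24 hpf. In FPKM it had 17.8 in the pool, against 14.0, 13.1 and 16.6 at 24 hpf. The p120 catenin gene ctnnd1, for a partner of cadherins, had 6.37 CPM in the pool, against 145, 156 and 117 CPM at 24 hpf, and 27.3 FPKM in the pool, against 30.4, 32.9 and 22.8 FPKM. Counts of ctnnd1, whose interval is identical in both annotations, were also low in the larva, head and tail (6.58, 6.61 and 16.4 CPM). The genes ensab, kcnj13 and lrrc58a showed the same split, with log2 changes of -2.52, -2.49 and -2.36 in counts and FPKM within the 24 hpf range. The 5.8S ribosomal RNA gene (5_8S_rRNA) had 1.18 CPM in the pool, against 304, 158 and 1081 CPM at 24 hpf, with FPKM listed at 0 throughout.

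Genes at 0 counts in the pool were mostly at 0 in every library of its annotation. Of 63 shared genes with 0 counts in the pool and a mean of at least 5 CPM at 24 hpf, 56 were likewise at 0 in larva, adult head and adult tail, and 25 had an FPKM above 0 in the pool. An identical interval was found for 46 of the 63, and 22 of these had an FPKM above 0 in the pool. The other 17 had a changed interval. The most abundant with a symbol were ppid (a cyclophilin), foxd3 and DCTPP1 (a nucleotide pyrophosphatase). The first had 59.2, 60.8 and 56.7 CPM at 24 hpf, yet 35.8 FPKM in the pool against 75.6, 90.3 and 65.3 FPKM at 24 hpf, and DCTPP1 had 14.4 FPKM in the pool against 29.5, 27.0 and 28.4 FPKM. In the other direction, 24 genes had 0 counts in all 3 samples of 24 hpf and more than 3 counts in the pool. Of these, 13 lie on the mitochondrial genome, in intervals of at most 75 bases. The highest pool count among the 24 was 1560. The most abundant with a symbol, ntng1b (a netrin) and tmem176l.2 (a membrane protein), held 4 counts each in the pool, and the third gene named by the rule, cyp8b1 (a bile acid enzyme), held 3 and is not among the 24.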

How the data were processed

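The submitters' processing notes name Zv9, TopHat 1.4.1 with Bowtie 0.12.7, Cufflinks 1.3.0, HTSeq 0.5.3p3 and CASAVA 1.4. The deposited counts are whole-number read counts per gene, and the deposited FPKM values are Cufflinks estimates per gene, per the file headers. Neither the releases of the annotations nor the strand setting was stated by the labels or headers. Each 24 hpf sample has 4 technical records and 1 file of each kind, and 9 records have no file of their own. Reads aligned to several places made up 23.4% of the pool and 21.1%, 14.2% and 27.6% of the 24 hpf samples, and genes outside the shared identifiers 1.54% of counts of the pool.

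Counts of shared genes in 7 libraries of 5 groups were fitted with edgeR 4.0.16 (R 4.3.3) after filterByExpr with a minimum count of 10, TMM scaling and a quasi-likelihood test with Benjamini-Hochberg adjustment. The residual degrees of freedom were 2, from 24 hpf alone. SE was the log2 change divided by the square root of F. The floor was 3 counts, 0.273 CPM in the pool and 0.0840, 0.0828 and 0.0848 CPM at 24 hpf, and covers counting error only. FPKM were tested with limma 3.58.1 on log2(FPKM + 1), and DESeq2 1.42.0 was an alternative. The steps were also run on counts simulated from the 24 hpf means with the same dispersion for all genes. These simulated counts held no difference of annotation, so they do not test that part of the comparison, and their outcome is not reported here.

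Named genes were the 10 with the largest change in each direction among calls with an identical interval, 20 CPM, 2-fold distance and 2-fold FPKM; up to 6 per direction with FPKM within or across the 24 hpf range; up to 4 calls per list, identical intervals first; and 3 genes per direction at 0 counts. Clone names and symbols with an (n of m) suffix were not used, except within lists. Of shared identifiers, 18363 were in the table of gene names. The comparison, its members and the 36 lists were chosen with earlier results of these data known. Genes that overlap on opposite strands may share reads, and counts of paralogues may lack reads that aligned to several places. Some genes that the rule names are not reported here.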

Additional observations from a re-analysis of the deposited data

Results flagged for a closer look

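Reads fell on genes that no comparison used. Of 3949 gene identifiers listed only in the annotation of the pool, 864 had more than 3 counts in the pool, and these identifiers took 170046 counts, 1.54% of its total. In the libraries counted on the same annotation, more than 3 counts fell on 984 of them (larva), 1168 (adult head) and 1029 (adult tail). Of the 127 identifiers listed only for 24 hpf, 66, 68 and 67 had more than 3 counts in the 3 samples. These genes have no partner in the other group and were given no fold change.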

How the results depend on the processing

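Without single samples of 24 hpf the number of genes called ranged from 144 to 4825, that of genes with an identical interval from 64 to 2114, and that of the 20 most changed genes still called from 11 to 20. limma-voom called 3 genes, 1 of them with an identical interval and 1 of the 20. limma on log2(FPKM + 0.1) called 1367, 768 and 8. Offsets for transcript length, chosen after seeing the data, called 1665 genes and 786 with an identical interval. With a floor of 3 counts in each library, which counts genes at or under it everywhere as higher, the pool was 2-fold beyond 24 hpf for 5099 genes, for 2747 with an identical interval, and 3-fold beyond for 2656. With 1 floor for all 4 libraries, also chosen after seeing the data, these were 4112, 2125 and 1833. Medians of 13 of 36 lists were above 0, against 21 and 22 on log2(FPKM + 1) and log2(FPKM + 0.1). For 5 named genes the log2 change in FPKM had the other sign: with a pseudocount of 1, with or without a minimum of 1 FPKM, and of 0.1 it was -0.030, -0.030 and -0.032 for urb2, 0.28, 0.28 and 0.30 for mrpl39, 0.23, 0.23 and 0.26 for ensab, 0.89, 0.89 and 0.92 for her4.1, and -0.32 each time for hmgb2a. The cause was not tested. DESeq2 (2691 genes), library totals (2732), no filter (2396), the 4 libraries alone (3373) and 24 hpf thinned to the depth of the pool (3037) kept the count within 1.5 times of 2665. No paired analysis was possible because the pool is 1 library and shares 1 replicate number with 24 hpf. With 1 pool library and 3 samples the spread is poorly known, and genes under the floor of 3 counts cannot be ordered.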
